A study of Mus musculus with 64 samples.

Results

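In trained mice, the liver was compared between animals that had lost Bmal1 in skeletal muscle and animals that had received vehicle. The comparison holds 10 of the 64 mouse libraries of the series, chosen by the tissue, treatment and titles in the labels: 5 of trained knockout liver and 5 of trained vehicle liver. The labels give both groups the genotype Cre+:iMSBmal1 fl/fl, and the sample titles call the knockout muscle-specific. The knockout group is labelled iMSBMal1KO + Exercise Training and the control group Vehicle + Exercise Training. Both groups ran on a treadmill daily for 6 weeks and were sampled 48 h after their last bout. A further 10 livers, 5 of sedentary knockout and 5 of sedentary vehicle mice with the same genotype, stand beside them below. Because the controls carry the floxed allele and Cre but received vehicle, an effect of whatever the knockout mice received in its place cannot be told apart from one of losing Bmal1. Sex, age and time of day of sampling are not given in the sources used here. The labels name the replicates of a group as separate samples without saying that each is 1 animal, so the p-values speak only of the spread among these libraries, which may be technical. Muscle, where the gene was removed, is not analysed here.

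Trained knockout livers held less RNA of 5 of 28 heat shock chaperones and more RNA of 4 of 22 Kupffer cell and macrophage genes than trained vehicle livers. Of all genes tested, 1.08% were lower and 1.55% higher at the same threshold. Without trained vehicle replicates 3 and 4, 0 genes of either list passed. Without trained knockout replicates 2 and 5, the only member of the macrophage list to pass was Slc40a1, whose product hepatocytes also make. The inducible Hsp70 gene Hspa1b averaged 28.8 ± 3.84 CPM in knockout livers and 90.8 ± 62.7 CPM in vehicle livers (SD, n = 5 each). Ferroportin, the iron exporter encoded by Slc40a1, averaged 161 ± 26.5 CPM in knockout livers and 84.9 ± 12.4 CPM in vehicle livers. The growth hormone feedback inhibitor Cish averaged 45.3 ± 16.5 CPM in knockout livers and 6.37 ± 2.61 CPM in vehicle livers, and Bcl6, a repressor of the same pathway, 20.8 ± 13.2 CPM in knockout livers and 62.7 ± 8.17 CPM in vehicle livers. Each of these 4 genes passed the test across all genes (limma, adjusted p under 0.05), and in each all 5 knockout livers lay outside the range of the 5 vehicle livers. All knockout livers lay above that range in 3.71% of all genes tested and below it in 2.89%. With trained vehicle replicates 3 and 4 left out, 0 genes passed, so none of these 4 did. Bcl6 did not pass in any fit that left out 1 trained library. Hspa1b and Bcl6 did not pass with GC content adjusted in each library, an alternative described further on. Levels are given here on the scale of CPM (counts per megaread), and are not divided by transcript length, so levels of different genes cannot be set against each other.

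BMAL1, encoded by Arntl, pairs with CLOCK to switch on the genes of the Per, Cry and Rev-erb repressors, which feed back on the pair and give transcription its daily rhythm. In liver this clock times metabolism together with feeding and hormones. Heat shock factor HSF1 binds repeated GAA and TTC blocks in the promoters of chaperone genes when proteins unfold. Growth hormone acts on hepatocytes through the kinase JAK2 and the factor STAT5, which binds the palindrome TTCNNNGAA; in male rodents the hormone comes in pulses, and the level of STAT5 target RNAs such as Cish swings with them. Kupffer cells are the macrophages resident in the liver sinusoids, where they take up bacteria, aged red cells and iron.

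Promoters of 4 genes are shown because these genes lead the chaperone and growth hormone groups and their promoters hold the letters given below. Each sequence is the RefSeq window from 250 bases before to 50 bases after the gene's start in build GRCm38.p6, printed 5′ to 3′ on the strand of the gene. Capitals mark GAANNTTC in the first pair of genes and TTCNNNGAA in the second pair, each searched on both strands.
Hspa1b: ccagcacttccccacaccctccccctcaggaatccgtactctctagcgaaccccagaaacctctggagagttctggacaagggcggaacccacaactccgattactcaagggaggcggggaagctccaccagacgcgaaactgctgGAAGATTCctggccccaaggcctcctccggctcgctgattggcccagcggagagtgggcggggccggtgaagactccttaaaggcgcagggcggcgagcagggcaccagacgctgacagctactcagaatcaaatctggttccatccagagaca
Hsph1: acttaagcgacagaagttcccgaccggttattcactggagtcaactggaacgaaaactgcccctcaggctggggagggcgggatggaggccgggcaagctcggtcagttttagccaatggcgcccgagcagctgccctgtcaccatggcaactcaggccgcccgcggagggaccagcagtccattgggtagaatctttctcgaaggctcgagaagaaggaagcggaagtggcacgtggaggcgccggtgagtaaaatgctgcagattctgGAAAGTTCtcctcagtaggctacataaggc
Cish: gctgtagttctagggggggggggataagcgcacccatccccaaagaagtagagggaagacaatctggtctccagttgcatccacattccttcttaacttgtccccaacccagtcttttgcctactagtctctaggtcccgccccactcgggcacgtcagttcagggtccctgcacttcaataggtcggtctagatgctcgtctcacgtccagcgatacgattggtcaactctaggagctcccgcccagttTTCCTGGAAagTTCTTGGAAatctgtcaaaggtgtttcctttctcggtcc
Bcl6: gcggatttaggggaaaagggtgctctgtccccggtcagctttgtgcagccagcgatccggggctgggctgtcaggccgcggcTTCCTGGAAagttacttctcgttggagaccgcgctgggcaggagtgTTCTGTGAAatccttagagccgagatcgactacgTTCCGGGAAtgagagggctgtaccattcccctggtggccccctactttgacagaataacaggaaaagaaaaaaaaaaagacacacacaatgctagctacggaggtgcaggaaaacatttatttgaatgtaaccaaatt
These windows are chr17:34959189-34959488 (minus strand), chr5:149636266-149636565 (minus), chr9:107296409-107296708 (plus) and chr16:23981234-23981533 (minus). Hsph1 and Bcl6 each have 2 listed starts, of which 1 is shown. The match in Hspa1b, GAAGATTC, begins 104 bases before the start, and that in Hsph1, GAAAGTTC, begins at base 21 after it. Cish holds TTCCTGGAA at base 1 and TTCTTGGAA at base 12 after its start, and a GAANNTTC match, GAAAGTTC at base 7, overlaps both. Bcl6 holds TTCCTGGAA, TTCTGTGAA and TTCCGGGAA at 168, 122 and 88 bases before its start. Among chaperone genes with a listed promoter, 12 of 23 (52.2%) held GAANNTTC, against 2442 of 27025 genes of the table (9.04%). Of the other chaperones that passed the test across all genes, Hspa4l and Ahsa1 held no match and Hsp90aa1 had no listed promoter. Hspd1, Hspe1 and Cct2, which did not pass, held the match. Among genes of the growth hormone list, 5 of 16 (31.2%; Cish, Socs3, Bcl6, Igfals and Prlr) held TTCNNNGAA, against 2582 of 27025 (9.55%). A match describes these letters only.

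The liver libraries carried an estimated 15.5 to 19.3 M reads in the trained knockout group and 12.4 to 18.2 M in the trained vehicle group. Hepatocyte markers summed to 74600 to 103000 CPM in knockout livers and 87800 to 111000 in vehicle livers, which fits the labelled tissue. Several libraries stood apart. Trained knockout replicate 2 carried skeletal muscle transcripts at 191 CPM and replicate 5 at 5.97, against 0.323 to 0.445 in the other knockout livers and 0.144 to 1.42 in the vehicle livers. The same 2 knockout libraries were high in acute phase and macrophage RNA. Trained vehicle replicates 3 and 4 were the highest of their group in Hspa1b, Hsph1, Creld2, Syvn1 and Ddit3. Trained vehicle replicate 1 lay farthest out on the first principal component of the 20 livers (24.4% of the variance), followed by sedentary knockout replicate 4.

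In all, 337 of 12818 genes tested (2.63%) were called between trained knockout and trained vehicle livers, 199 higher (1.55%) and 138 lower (1.08%). A gene is called at an adjusted p under 0.05 from limma, fitted to log2(CPM + 1) over all 20 livers with Benjamini-Hochberg adjustment, and fold changes below are on that scale, which understates the change of low genes. The median fold change of all genes was -0.01, and 22 called genes moved by more than 2-fold. At an unadjusted p under 0.05 (limma) there were 2809 genes (21.9%), and edgeR on estimated reads called 398. In 476 genes (3.71%) all 5 knockout livers lay above all 5 vehicle livers, and in 371 (2.89%) all lay below. Among the called genes the groups were apart in 163 of the 199 higher and 103 of the 138 lower. The number of calls depended strongly on which libraries were in the fit. Leaving out trained vehicle replicates 3 and 4 together left 0 calls (limma, 1491 genes at an unadjusted p under 0.05), and the 10 fits that each left out 1 trained library gave 4 to 595. Without trained vehicle replicate 3 there were 4 calls, without replicate 4 there were 12, and without trained knockout replicates 1 and 3 there were 9 and 16. The counts were also over 1.5 times lower without trained knockout replicate 2 (172), 4 (158) or 5 (63) or trained vehicle replicate 1 (47), and over 1.5 times higher without trained vehicle replicate 2 (595) or sedentary knockout replicate 3 (574), which enters the shared spread. Of the 337 calls, 4 were kept in all 10 fits: Slc40a1, the zinc finger gene Zfp970, the epithelial trafficking GTPase gene Rab17 and the septin gene Septin10. Rab17 and Septin10 are named after their values were seen.

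**Figure D1:**
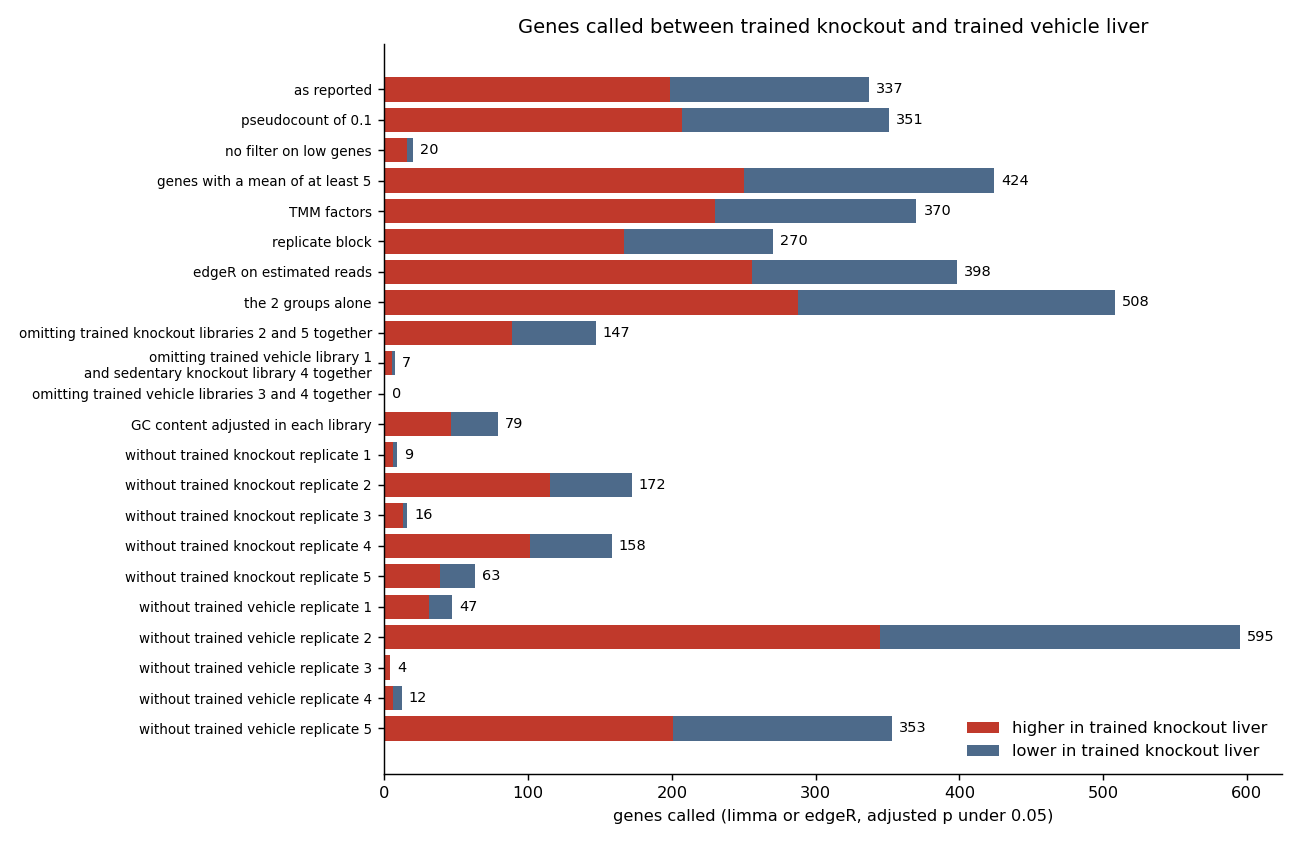
Number of genes called between trained knockout and trained vehicle livers (horizontal axis) under each setting (rows), with genes higher in the knockout in red and genes lower in blue. The count as reported is 337, and it lies between 0 with trained vehicle libraries 3 and 4 omitted and 595 without trained vehicle replicate 2.

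Core clock and clock output genes moved in both directions. Of 20 tested, 1 was called higher and 1 lower, where 1.55% of all genes were called higher and 1.08% lower, and the median fold change was 0.05, against -0.01 over all genes. Arntl itself, which was removed in muscle, was 0.635, 1.14, 1.13, 0.27 and 0.708 CPM in the knockout livers and 2.62, 1.23, 2.35, 3.22 and 3.0 CPM in the vehicle livers. All knockout livers lay below the vehicle range, although vehicle replicate 2 came close, and the lowest library rests on 4 estimated reads. The fold change was -0.96 (SE 0.23, limma adjusted p = 0.034), kept in 2 of 10 fits that left out a library. Nr1d2, the repressor Rev-erb beta, rose: it was 174, 113, 169, 122 and 115 CPM in knockout livers and 83.1, 94.7, 73.2, 70.9 and 93.3 CPM in vehicle livers. Its groups were apart, and its fold change was 0.72 (SE 0.13, adjusted p = 0.0233). Dbp, a clock output factor, also had its groups apart, at 110 to 193 CPM in knockout livers and 60.2 to 92.7 CPM in vehicle livers, but it did not pass (0.75, SE 0.22, adjusted p = 0.0633). It was called with GC content adjusted in each library, an alternative described further on (0.86, adjusted p = 0.0444). Per2 stood at -0.45 (adjusted p = 0.168), Nfil3 at -0.56 (0.159), Nr1d1 at -0.22 (0.582) and Clock at -0.11 (0.643). In sedentary livers Dbp had a fold change of 0.60 between knockout and vehicle and Arntl -0.42, and neither passed.

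**Figure D2:**
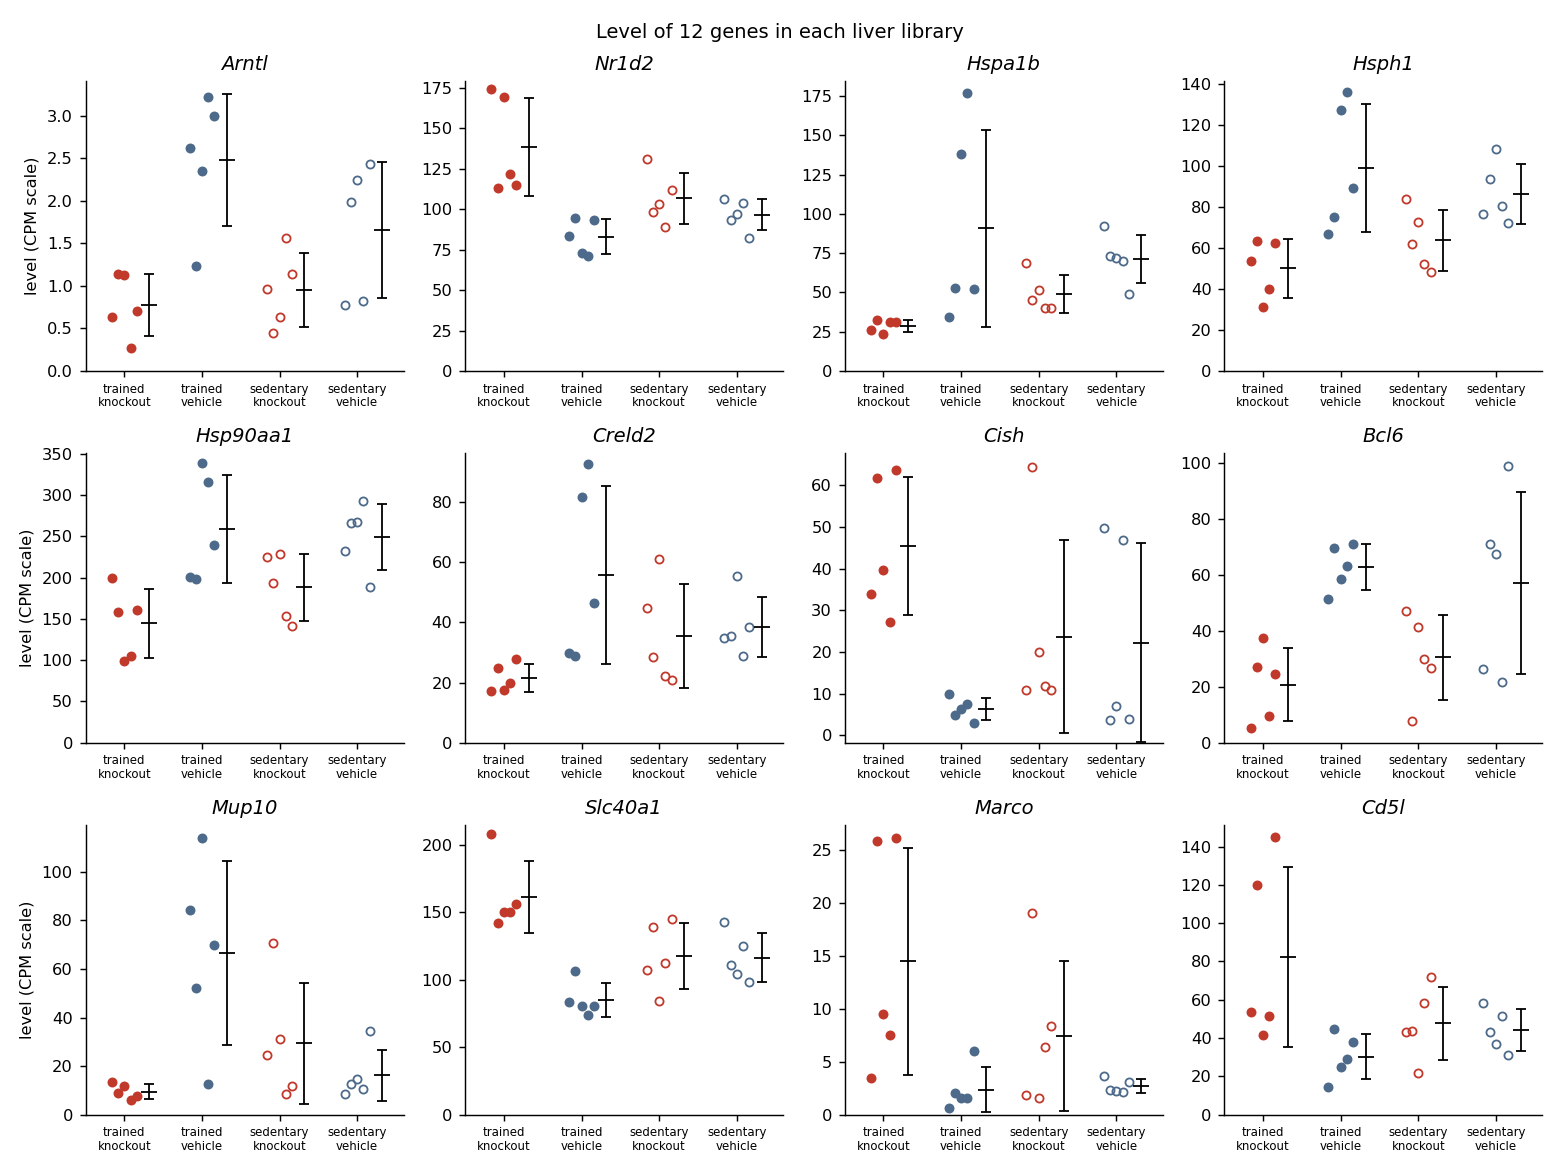
Level of 12 genes (vertical axes, CPM scale) in each liver library, in trained knockout, trained vehicle, sedentary knockout and sedentary vehicle livers. Points are libraries, and the line with caps is the mean ± SD of 5 libraries; the trained knockout points of Cish lie between 27.3 and 63.8 and the trained vehicle points between 3.08 and 10.

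Of 28 heat shock chaperone genes, all tested, 5 were called lower in trained knockout livers and 0 higher, where 1.08% of all genes were called lower; 25 of the 28 had a negative fold change, and the list's median was -0.33 against -0.01 over all genes. Hspa1b was 26.4, 32.4, 23.3, 30.9 and 31.1 CPM in knockout livers and 34.4, 52.6, 138, 177 and 52.4 CPM in vehicle livers. The knockout livers were alike and all below the vehicle livers, which spread widely. The fold change was -1.35 (SE 0.31, adjusted p = 0.0323). Hsph1, an Hsp110 that recharges Hsp70, was 53.4, 63.4, 31, 39.8 and 62.2 CPM in knockout livers and 66.5, 75, 127, 136 and 89.2 CPM in vehicle livers, with a fold change of -0.96 (SE 0.21, adjusted p = 0.0312). Its groups did not overlap, and replicates 3 and 4 were the highest of the vehicle livers, as for Hspa1b. Hsp90aa1, the inducible Hsp90, was 199, 158, 99.5, 105 and 161 CPM in knockout livers and 201, 198, 339, 316 and 240 CPM in vehicle livers (-0.85, SE 0.19, adjusted p = 0.0323), and knockout replicate 1 lay within the vehicle range.

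The other called chaperones were Hspa4l and Ahsa1. Hspa4l, another Hsp110, was 16.6, 22.1, 16.7, 15.5 and 16.1 CPM in knockout livers and 22.7, 22.8, 23.8, 25.8 and 26.3 CPM in vehicle livers (-0.47, SE 0.12, adjusted p = 0.0372). Its vehicle livers lay close together, and its sedentary fold change, -0.50, was about the same size (adjusted p = 0.694). Ahsa1, which stimulates the ATPase of Hsp90, was at 58.4 to 76.2 CPM in knockout livers and 74.2 to 104 CPM in vehicle livers (-0.40, SE 0.10, adjusted p = 0.0344). Just past the threshold lay the co-chaperone Bag3 (-0.82, adjusted p = 0.0533), the Hsp70-Hsp90 organiser Stip1 (-0.46, 0.055), Fkbp4 (-0.37, 0.0561), Hsp90ab1 (-0.45, 0.0565) and the small heat shock protein gene Hspb1 (-0.86, 0.0618). Hspa1a, a near-identical copy of Hspa1b with which reads can be shared, was 1.93 to 3.03 CPM in knockout livers and 1.8 to 12.2 CPM in vehicle livers (-0.76, adjusted p = 0.205). The factor gene Hsf1 stood at -0.23 (adjusted p = 0.237), and the mitochondrial chaperonin genes Hspd1 (-0.04) and Hspe1 (-0.19) and the cytosolic chaperonin genes Cct2 (0.03) and Tcp1 (0.02) were nearer 0. Without trained vehicle replicates 3 and 4, the median of the list was -0.17 and 0 were called. Leaving out 1 library at a time gave 0 to 11 called chaperones, with 0 without trained knockout replicate 1, and 1 was called without trained vehicle replicate 1 and sedentary knockout replicate 4. With trained vehicle replicates 3 and 4 in and trained knockout replicates 2 and 5 left out, the median was -0.40 and 4 were called. In sedentary livers 24 of the 28 lay below 0, their median was -0.15 and 0 were called.

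Genes of the endoplasmic reticulum showed the same libraries. Of 22 folding and unfolded protein response genes, 2 were called lower and 0 higher, against 1.08% of all genes called lower, and the median was -0.39. Creld2, a secreted chaperone, was 17.2, 24.9, 17.5, 19.9 and 27.7 CPM in knockout livers and 29.7, 28.8, 81.7, 92.6 and 46.4 CPM in vehicle livers (-1.20, SE 0.31, adjusted p = 0.0421). Syvn1, a ubiquitin ligase that clears misfolded proteins, was 40.2, 56.2, 40.7, 45.6 and 65.2 CPM in knockout livers and 84.5, 61.7, 195, 171 and 99.1 CPM in vehicle livers (-1.18, SE 0.31, adjusted p = 0.0462). In both genes vehicle replicates 3 and 4 were far above the other vehicle livers. Hyou1 (-0.85, adjusted p = 0.0617), Sel1l (-0.39, 0.061), Manf (-0.83, 0.0657) and Hspa5, the chaperone BiP (-0.54, 0.179), did not pass. Without vehicle replicates 3 and 4 the median was -0.20 and 0 were called. Without knockout replicates 2 and 5 the median was -0.45 and 0 were called. In sedentary livers 19 of the 22 genes also lay below 0, with a median of -0.09 and 0 called.

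The integrated stress response, in which the factor ATF4 answers amino acid shortage and unfolded proteins, went both ways. Of 16 tested targets 2 were called lower and 1 higher, against 1.08% of all genes called lower and 1.55% higher. The list's median was -0.29, and without trained vehicle replicates 3 and 4 it was -0.03 and 0 were called. Ddit3, the factor CHOP, was 5.66, 6.04, 4.84, 4.58 and 5.97 CPM in knockout livers and 8.39, 7.29, 15.8, 15.8 and 7.62 CPM in vehicle livers (-0.83, SE 0.22, adjusted p = 0.0485). Gdf15, a stress hormone that acts on the brainstem, was 2.29, 1.77, 0.646, 1.75 and 2.38 CPM in knockout livers and 2.67, 2.81, 4.19, 4.69 and 6.0 CPM in vehicle livers (-0.88, SE 0.22, adjusted p = 0.0375). Both had their groups apart. Chac1, an enzyme that degrades glutathione, rose: it was 2.41, 5.82, 4.9, 3.71 and 5.36 CPM in knockout livers and 1.42, 0.721, 1.68, 1.19 and 3.4 CPM in vehicle livers, with a fold change of 1.05 (SE 0.24, adjusted p = 0.0326). Vehicle replicate 5 overlapped the knockout range of Chac1. The amino acid enzyme gene Asns was uneven within both groups, at 1.62 to 9.04 CPM in knockout livers and 1.95 to 15.1 CPM in vehicle livers (-0.54, adjusted p = 0.573), and Atf4 stood at -0.19 (0.354) and Fgf21, a fasting hormone, at -0.73 (0.196).

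Of 15 tested genes of growth hormone signalling, 1 was called higher and 1 lower (1.55% of all genes were called higher and 1.08% lower). Cish, which blocks STAT5 docking on its receptor, was 34, 61.8, 39.8, 27.3 and 63.8 CPM in knockout livers and 10, 4.98, 6.37, 7.42 and 3.08 CPM in vehicle livers. Every knockout library lay far above the highest vehicle library, and the fold change was 2.65 (SE 0.60, adjusted p = 0.0323), the highest of the 34 named genes. Bcl6, which competes with STAT5 at its sites and whose RNA falls after a growth hormone pulse, was 5.34, 27, 37.6, 9.71 and 24.4 CPM in knockout livers and 51.3, 69.7, 58.5, 63 and 71.1 CPM in vehicle livers. The vehicle livers were alike and all above the knockout livers (-1.82, SE 0.48, adjusted p = 0.0473). The call of Cish was kept in 3 and that of Bcl6 in 0 of 10 fits that left out a library, and edgeR on estimated reads gave Bcl6 an adjusted p of 0.0657.

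Levels of Cish and Bcl6 also varied within the sedentary groups, and there the libraries with high Cish were low in Bcl6. Among trained knockout livers this was not so, as replicates 1 and 4 were lowest in both genes. Among trained vehicle livers the replicate highest in Cish was lowest in Bcl6. Cish was 10.9, 64.5, 20, 11.8 and 11 CPM in sedentary knockout livers and 49.8, 3.65, 6.98, 46.8 and 3.84 CPM in sedentary vehicle livers. Bcl6 in the same order was 47, 7.66, 41.2, 29.9 and 26.7 CPM in sedentary knockout livers and 26.2, 71.1, 67.6, 21.8 and 98.9 CPM in sedentary vehicle livers. Sedentary vehicle replicates 1 and 4 and sedentary knockout replicate 2 had Cish within or just above the trained knockout range, and the other sedentary vehicle livers within the trained vehicle range. Between sedentary knockout and sedentary vehicle livers the fold change of Cish was 0.50 (SE 0.60, adjusted p = 0.996), and the difference of the trained and sedentary effects, 2.15 (SE 0.84), did not pass (limma adjusted p = 0.387). Bcl6 had a sedentary fold change of -0.87 (SE 0.48) and a difference of -0.95 (SE 0.68, adjusted p = 0.641).

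The other tested genes of the growth hormone list did not pass. Onecut1, a hepatocyte factor, was 94, 52, 21.1, 51.1 and 46.2 CPM in knockout livers and 20.6, 7.35, 25.4, 26.3 and 8.63 CPM in vehicle livers (1.56, SE 0.52, adjusted p = 0.0939), with knockout replicate 3 within the vehicle range. Socs2, a feedback inhibitor, stood at 0.70 (adjusted p = 0.382) and Socs3 at 1.04 (0.232). Stat5a stood at -0.41 (0.0633) and Stat5b at 0.23 (0.131). The receptor gene Ghr (0.31, 0.17) and the effector Igf1 (0.23, 0.29) had positive values. Igfbp3, the main carrier of IGF1, was 8.5 to 18.6 CPM in knockout livers and 8.47 to 11.1 CPM in vehicle livers (0.55, adjusted p = 0.0644).

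Male-biased genes of mouse liver, which depend on pulsed growth hormone, had 2 of 27 called lower and 0 higher (1.08% of all genes were called lower), and 22 of the 27 had a negative fold change (median -0.29). Without trained vehicle replicates 3 and 4 the median of this list was -0.05 and 0 were called. Mup10, a major urinary protein gene, was 13.5, 8.74, 11.7, 6.08 and 7.49 CPM in knockout livers and 84.4, 52.3, 114, 12.4 and 70 CPM in vehicle livers (-2.43, SE 0.51, adjusted p = 0.0294). Vehicle replicate 4 overlapped the knockout livers and the other vehicle livers lay far above them. Mup genes are near-identical copies whose reads can be shared, and the more abundant Mup20 (-0.12, adjusted p = 0.804) and Mup3 (0.12, 0.687) did not pass. Cyp2u1, a fatty acid hydroxylase, was 31, 27.5, 35.2, 32.9 and 30.2 CPM in knockout livers and 54.3, 45.3, 73.7, 64.4 and 33 CPM in vehicle livers (-0.72, SE 0.19, adjusted p = 0.0468). Of 9 tested female-biased genes 0 were called (limma, 0 at an unadjusted p under 0.05, against 21.9% of all genes, edgeR 0), with a median of -0.06. Mup10 had a sedentary fold change of 0.62 (SE 0.51) and a difference between trained and sedentary effects of -3.06 (SE 0.73, adjusted p = 0.214).

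Of 22 tested Kupffer cell and macrophage genes, 4 were called higher in trained knockout livers and 0 lower, where 1.55% of all genes were called higher, 21 had a positive fold change, and the median was 0.82. In bulk liver, more macrophages and more of these RNAs per macrophage cannot be told apart. Marco, a scavenger receptor for bacteria, was 3.49, 25.8, 9.47, 7.48 and 26.1 CPM in knockout livers and 0.577, 2.02, 1.59, 1.61 and 6.0 CPM in vehicle livers (2.07, SE 0.51, adjusted p = 0.0375). Cd5l, a lipid-binding protein secreted by macrophages, was 53.4, 120, 41.8, 51.4 and 145 CPM in knockout livers and 14.6, 44.9, 25.1, 28.9 and 37.7 CPM in vehicle livers (1.33, SE 0.34, adjusted p = 0.0432). Knockout replicates 2 and 5 were the highest in both genes, and the lowest knockout library of each lay within the vehicle range. Mpeg1, a pore-forming protein of phagocytes, was 53.2, 71.4, 57.8, 53.9 and 84.1 CPM in knockout livers and 20.2, 47.1, 28.1, 32.3 and 45.9 CPM in vehicle livers (0.91, SE 0.24, adjusted p = 0.0475), and its groups were apart.

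Slc40a1 did not follow knockout replicates 2 and 5. It was 208, 142, 150, 150 and 156 CPM in knockout livers and 83.2, 106, 80.6, 74 and 80.7 CPM in vehicle livers (0.91, SE 0.14, adjusted p = 0.0105). Every knockout liver exceeded every vehicle liver, and the call was kept whichever of the 10 trained libraries was left out, and with trained knockout replicates 2 and 5 left out (adjusted p = 0.0196), though not without trained vehicle replicates 3 and 4 (0.83, adjusted p = 0.203). Hepatocytes also make ferroportin, so the gene is not a mark of macrophages alone. Hamp, the hepatic hormone hepcidin that degrades ferroportin, was 607, 171, 290, 614 and 194 CPM in knockout livers and 800, 472, 500, 453 and 535 CPM in vehicle livers (-0.73, adjusted p = 0.276), a gene named after its values were seen. Hmox1, which opens haem to free its iron, stood at 0.25 (adjusted p = 0.481).

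With trained knockout replicates 2 and 5 left out, the median of the macrophage list was 0.37 and only Slc40a1 of its members was called. Marco then stood at 1.32 (adjusted p = 0.167) and Cd5l at 0.76 (0.195). Summed Kupffer markers, 10 genes that are all on the list, were 212, 457, 179, 216 and 529 CPM in trained knockout livers and 97.8, 196, 123, 142 and 183 CPM in trained vehicle livers. Erythroid markers, at 1010, 2380, 1320, 1180 and 2240 CPM in trained knockout livers and 1700, 1620, 1270, 1100 and 704 CPM in trained vehicle livers, were also highest in knockout replicates 2 and 5, and so were neutrophil markers, at 1.97, 5.19, 1.61, 0.539 and 4.2 CPM in trained knockout livers and 0.839, 0.866, 2.93, 0.35 and 0.891 CPM in trained vehicle livers. The part of either in the result was not tested. Lyz2 (0.99, adjusted p = 0.0607), Csf1r (0.85, 0.058), Adgre1, the antigen F4/80 (0.93, 0.0686), and Clec4f, a lectin of Kupffer cells (0.79, 0.0979), did not pass, and Id3 (-0.02) and Nr1h3 (0.04) were near 0. Other macrophage receptor genes were among the 12 highest fold changes. Clec7a, the fungal glucan receptor dectin-1, was 3.88, 3.93, 3.01, 3.3 and 5.46 CPM in knockout livers and 1.26, 1.95, 1.01, 0.91 and 2.03 CPM in vehicle livers (1.02, SE 0.18, adjusted p = 0.0228), and it was still called without knockout replicates 2 and 5 (0.88, adjusted p = 0.0435). Adgre4, a macrophage adhesion receptor, was 1.89 to 5.81 CPM in knockout livers and 0.755 to 1.4 CPM in vehicle livers (0.97, SE 0.24, adjusted p = 0.038). In sedentary livers 19 of the 22 genes of the macrophage list also had a positive fold change, with a median of 0.13 and 0 called.

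The acute phase genes Saa1 and Lcn2, made by hepatocytes in inflammation, were high in those 2 knockout libraries and not in the other 3. The genes given here were named after their values were seen. Saa1 was 17.5, 146, 17.9, 21.2 and 160 CPM in knockout livers and 11.2, 16.9, 20.7, 23.2 and 16.7 CPM in vehicle livers (1.30, SE 0.53, adjusted p = 0.16). Lcn2, an iron-binding defence protein, was 1.65, 40.9, 2.85, 2.16 and 41.7 CPM in knockout livers and 0.891 to 2.59 CPM in vehicle livers (1.83, SE 0.69, adjusted p = 0.132). The proto-oncogene Myc, on the immediate early list, was 2.73, 17.1, 13.7, 4.31 and 17.3 CPM in knockout livers and 1.33 to 2.6 CPM in vehicle livers (1.73, SE 0.54, adjusted p = 0.0763). Of 21 acute phase genes 0 were called (limma, 8 at an unadjusted p under 0.05, against 21.9% of all genes, edgeR 1) and 20 had a positive fold change. Their median was 0.31, and 0.01 without knockout replicates 2 and 5. In sedentary livers 20 of the 21 also had a positive fold change, with a median of 0.26 and 0 called.

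Genes of fuel metabolism had medians near 0. Of 26 genes of fatty acid oxidation, 20 of gluconeogenesis and insulin response, 18 of fatty acid and triglyceride synthesis, 23 of drug metabolism and 40 of oxidative phosphorylation, 0 were called (limma), with medians of -0.01, 0.00, -0.10, 0.02 and -0.09. The numbers at an unadjusted p under 0.05 were 2, 5, 1, 3 and 7, and edgeR called 0 in each. Of all genes tested, 21.9% had an unadjusted p under 0.05 (limma). In sterol metabolism 1 of 20 genes was called higher (1.55% of all genes were), with a list median of 0.14. In sedentary livers 18 of the 20 lay below 0 and the median was -0.19. This was Stard4, which carries cholesterol between membranes, at 265, 180, 207, 206 and 196 CPM in knockout livers and 118, 148, 165, 161 and 139 CPM in vehicle livers (0.52, SE 0.13, adjusted p = 0.0432), with its groups apart. Hmgcs1, an enzyme of cholesterol synthesis, stood at 0.51 (adjusted p = 0.101). Of 23 bile acid genes 1 was called higher (1.55% of all genes were): Abcg8, of the pair that exports sterols into bile, was 84.4, 87.7, 114, 79.9 and 83.9 CPM in knockout livers and 57.8, 80.6, 58.9, 60.8 and 68.5 CPM in vehicle livers (0.46, SE 0.11, adjusted p = 0.0346). Its partner Abcg5 stood at 0.33 (adjusted p = 0.0535), and in sedentary livers Abcg8 had a fold change of 0.37. Of 21 secreted factors linked to exercise or liver 1 was called lower, Gdf15 (list median -0.15, with 1.08% of all genes called lower).

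Among the remaining lists, 0 genes were called by limma of 16 immediate early genes, 18 glucocorticoid-responsive genes, 18 interferon-stimulated genes, 13 proliferation genes, 13 apoptosis genes and 25 matrix genes. Their medians were -0.05, 0.14, 0.18, 0.05, 0.08 and 0.07, with 2, 7, 3, 2, 2 and 2 genes at an unadjusted p under 0.05, and edgeR called 1, 2, 0, 0, 0 and 0. The share of all genes at an unadjusted p under 0.05 (limma) was 21.9%. The glucocorticoid receptor gene Nr3c1 came closest among the glucocorticoid-responsive genes, at 98.5 to 139 CPM in knockout livers and 75.5 to 92 CPM in vehicle livers (0.39, adjusted p = 0.0525).

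**Figure D3:**
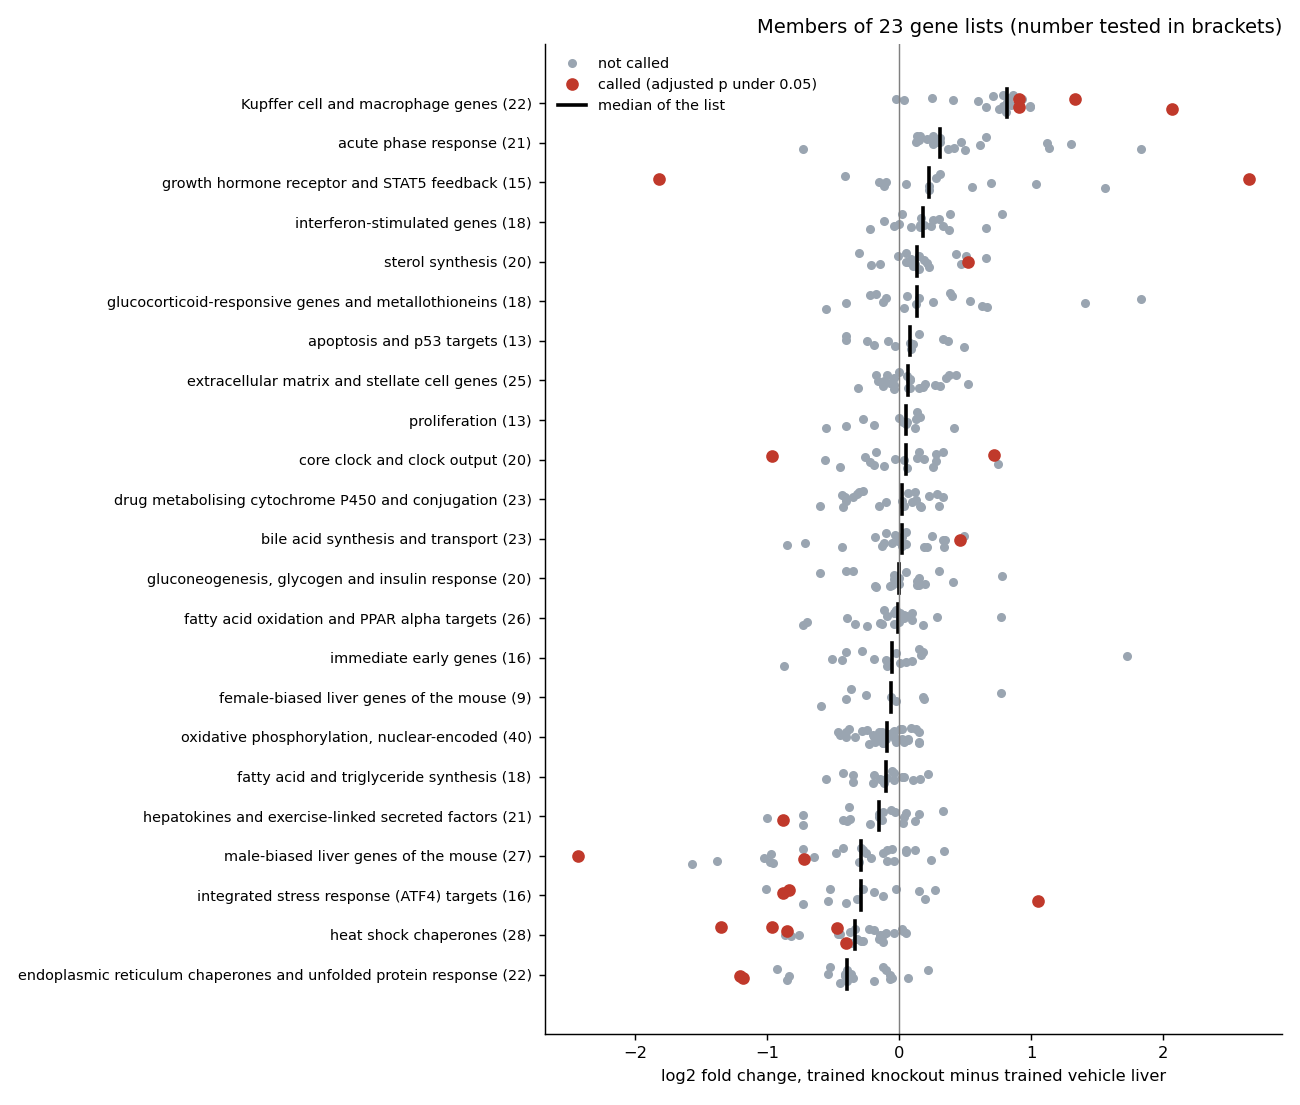
Log2 fold change of trained knockout minus trained vehicle liver (horizontal axis) for every tested member of 23 gene lists (rows, ordered by median). Red points are called members, grey points are not called, and the bar is the list's median, which runs from 0.82 for Kupffer cell and macrophage genes to -0.39 for endoplasmic reticulum genes.

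Several called genes with large fold changes belong to none of these groups. Serpina7, the thyroxine carrier of plasma, was 158, 134, 115, 103 and 136 CPM in knockout livers and 36.8, 53.2, 68.7, 63.7 and 66.2 CPM in vehicle livers (1.16, SE 0.26, adjusted p = 0.0323). Cyp26a1, which breaks down retinoic acid, was 29.8, 16.8, 25.1, 21 and 18.4 CPM in knockout livers and 12.3, 6.78, 11.2, 8.54 and 11.7 CPM in vehicle livers (1.07, SE 0.22, adjusted p = 0.0294). The groups of both genes were apart. Zfp970 was 57.7, 48.1, 37.3, 32 and 42.9 CPM in knockout livers and 23.5, 19.7, 19.6, 19.2 and 20.4 CPM in vehicle livers (1.03, SE 0.14), with an adjusted p of 0.00303. Tifa, an adaptor of NF-kB signalling, was 12.8 to 25 CPM in knockout livers and 7.91 to 12.6 CPM in vehicle livers (0.94, SE 0.19, adjusted p = 0.0294), and Clec2h, a lectin-like receptor gene, 4.6 to 9.36 CPM in knockout livers and 1.34 to 5.41 CPM in vehicle livers (1.11, SE 0.27, adjusted p = 0.0365). All vehicle livers of Tifa lay below its knockout livers, while Clec2h overlapped through vehicle replicate 2.

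Of the falling genes outside the lists, the beta tubulin gene Tubb2a was 18.6, 22.2, 22.5, 28.6 and 23.3 CPM in knockout livers and 52.4, 35.9, 51.4, 59.6 and 56.7 CPM in vehicle livers (-1.11, SE 0.19, adjusted p = 0.0159). Its groups were apart and its call was kept in 9 of 10 fits that left out a library. Chka, the choline kinase that starts phosphatidylcholine synthesis, was 13.9, 16.5, 12.2, 10.4 and 14.8 CPM in knockout livers and 35.7, 16.2, 34.1, 27.3 and 28.4 CPM in vehicle livers (-0.98, SE 0.20, adjusted p = 0.0294). Tbx3, a transcription factor of hepatocytes around the central vein, was 25.3, 19.3, 18.5, 24.7 and 16.6 CPM in knockout livers and 35.3, 39, 56.8, 59.9 and 19.6 CPM in vehicle livers (-0.90, SE 0.20, adjusted p = 0.0323). Chka overlapped through vehicle replicate 2 and Tbx3 through vehicle replicate 5. Banp, which encodes a DNA-binding protein, was 5.31 to 7.37 CPM in knockout livers and 9.97 to 19.1 CPM in vehicle livers (-0.93, SE 0.25, adjusted p = 0.0485), and Ccdc134 2.16 to 4.22 CPM in knockout livers and 4.78 to 11.7 CPM in vehicle livers (-0.91, SE 0.23, adjusted p = 0.0411).

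Base composition moved with the trained comparison. The median GC content of the longest annotated transcript was 41.0% in genes called higher and 53.8% in genes called lower, against 49.5% in all genes tested, and 99.3% of tested genes had a value. Across 12724 genes the Spearman correlation of fold change with GC content was -0.381 in trained livers and 0.0837 in sedentary livers (genes share libraries and are not independent replicates). Genes were put in 10 bins by GC content. In the bin lowest in GC, at a median of 39.6%, 105 genes were called higher and 2 lower, and in the highest, at 59.4%, 2 were called higher and 24 lower. The mean log2 level of low-GC minus high-GC genes, centred over the 20 livers, ran from 0.03 to 0.52 in trained knockout livers and from -0.30 to 0.07 in trained vehicle livers. The macrophage and endoplasmic reticulum lists had median GC contents of 52.0% and 49.5% and the chaperone list 47.2%. Transcript length moved with the comparison as well. The median longest transcript was 4442.5 nt in genes called higher and 2089.5 nt in genes called lower, against 3219.5 nt in all genes. Length and fold change had a Spearman correlation of 0.142 in trained and 0.0103 in sedentary livers, across genes. Of 10 bins by length, the shortest held 3 genes called higher and 43 called lower, and the longest 42 called higher and 3 called lower. The part of length in the result was not tested.

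With each library's levels centred within 20 bins of GC content, an adjustment chosen after seeing the data, 79 genes were called, 46 higher and 33 lower, of which 73 were also called without it. Of the chaperones, Hsph1 (-0.98, limma adjusted p = 0.0396), Hsp90aa1 (-0.96, 0.0396), Ahsa1 (-0.42, 0.0416) and Hspa4l (-0.69, 0.0251) stayed called, and Hspa1b did not (-1.25, 0.0547). The list's median was -0.35, and that of the macrophage list 0.85, where 1 gene instead of 4 was called, Slc40a1 (0.80, adjusted p = 0.0213), and Marco (2.15, 0.0545), Cd5l (1.39, 0.0587) and Mpeg1 (0.85, 0.0744) were not. In the endoplasmic reticulum list 0 genes instead of 2 were called, with Creld2 at -1.12 (0.0731) and Syvn1 at -1.06 (0.0769). Of the integrated stress response targets Chac1 stayed called (1.17, 0.0396), while Ddit3 (-0.89, 0.0708) and Gdf15 (-0.76, 0.0973) did not. Cish (2.72, 0.0396), Mup10 (-2.55, 0.0358), Nr1d2 (0.60, 0.0251), Tubb2a (-1.03, 0.0251) and Zfp970 (0.85, 0.0251) stayed called, while Arntl (-0.96, 0.0523) and Bcl6 (-1.77, 0.0744) did not. Of the 34 named genes 16 stayed called and 18 did not. Among the 18 were also Serpina7, Clec2h, Adgre4, Banp, Ccdc134, Tbx3, Cyp2u1 and Stard4.

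**Figure D4:**
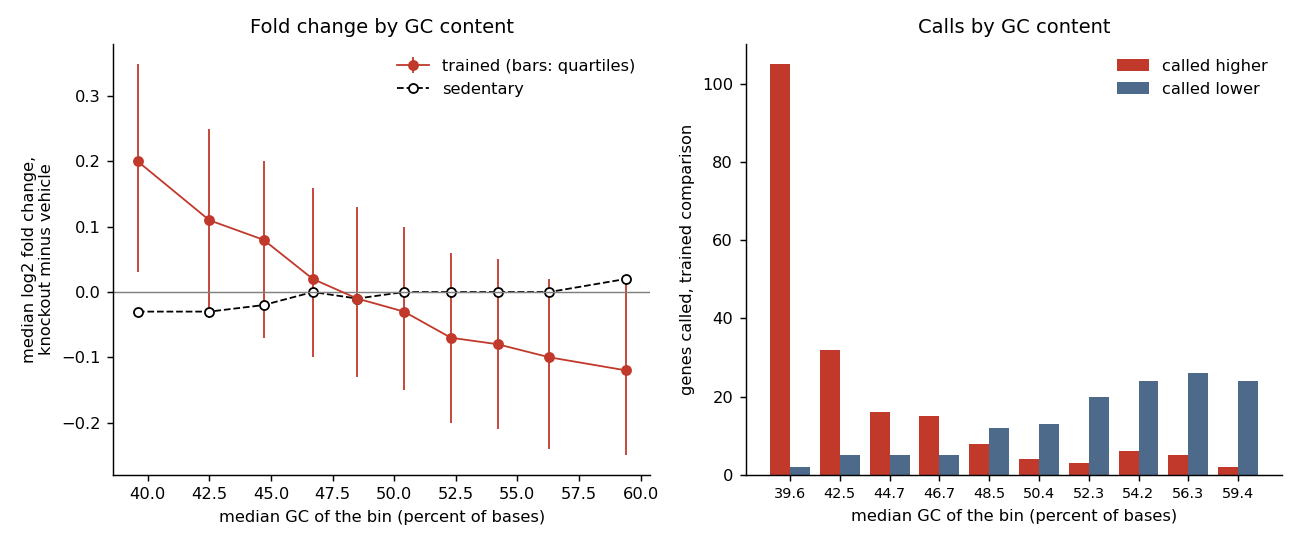
Left, median log2 fold change of knockout minus vehicle (vertical axis, bars from the first to the third quartile in trained livers) in 10 bins of genes by GC content (horizontal axis, percent of bases), in trained (red) and sedentary (open) livers. Right, genes called higher (red) and lower (blue) in each bin; the trained median runs from 0.20 in the lowest bin to -0.12 in the highest.

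In sedentary livers the same knockout gave 0 called genes (limma, 616 at an unadjusted p under 0.05, edgeR 0). Of the 199 genes called higher in trained livers, 126 had a positive fold change in sedentary livers, with a median of 0.03, and of the 138 called lower, 88 had a negative one, with a median of -0.07. Over all 12818 genes, 48.1% had a positive fold change in sedentary livers, and the median was -0.01. The 2 knockout comparisons share no library. The difference between the trained and sedentary knockout effects was tested directly and called 1 gene of 12818 (0.0078%), with 1311 genes at an unadjusted p under 0.05 and 0 called by edgeR. That gene was Rps2-ps8, a pseudogene of a ribosomal protein gene with near-identical copies, named because it was the only call. It was 7.04, 6.49, 6.52, 5.01 and 7.06 CPM in trained knockout livers and 2.79, 3.35, 3.52, 3.39 and 2.56 CPM in trained vehicle livers. In sedentary livers it was 3.57, 2.69, 4.03, 5.79 and 3.94 CPM in knockout and 5.62, 8.43, 8.64, 5.34 and 4.56 CPM in vehicle mice. The difference was 1.43 (SE 0.23, adjusted p = 0.0491), from a trained effect of 0.85 and a sedentary effect of -0.58. Leaving out 1 liver at a time gave 0 to 8 such calls, with 8 without sedentary vehicle replicate 5, 3 without trained vehicle replicate 4, 2 without trained vehicle replicate 2 or 3, and 0 without any one of the other sedentary vehicle livers. For Slc40a1 the difference was 0.91 (SE 0.20) and for Igfbp3 1.05 (SE 0.23), each with an adjusted p of 0.214, so a different response in trained and sedentary mice is not shown for the genes described above.

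**Figure D5:**
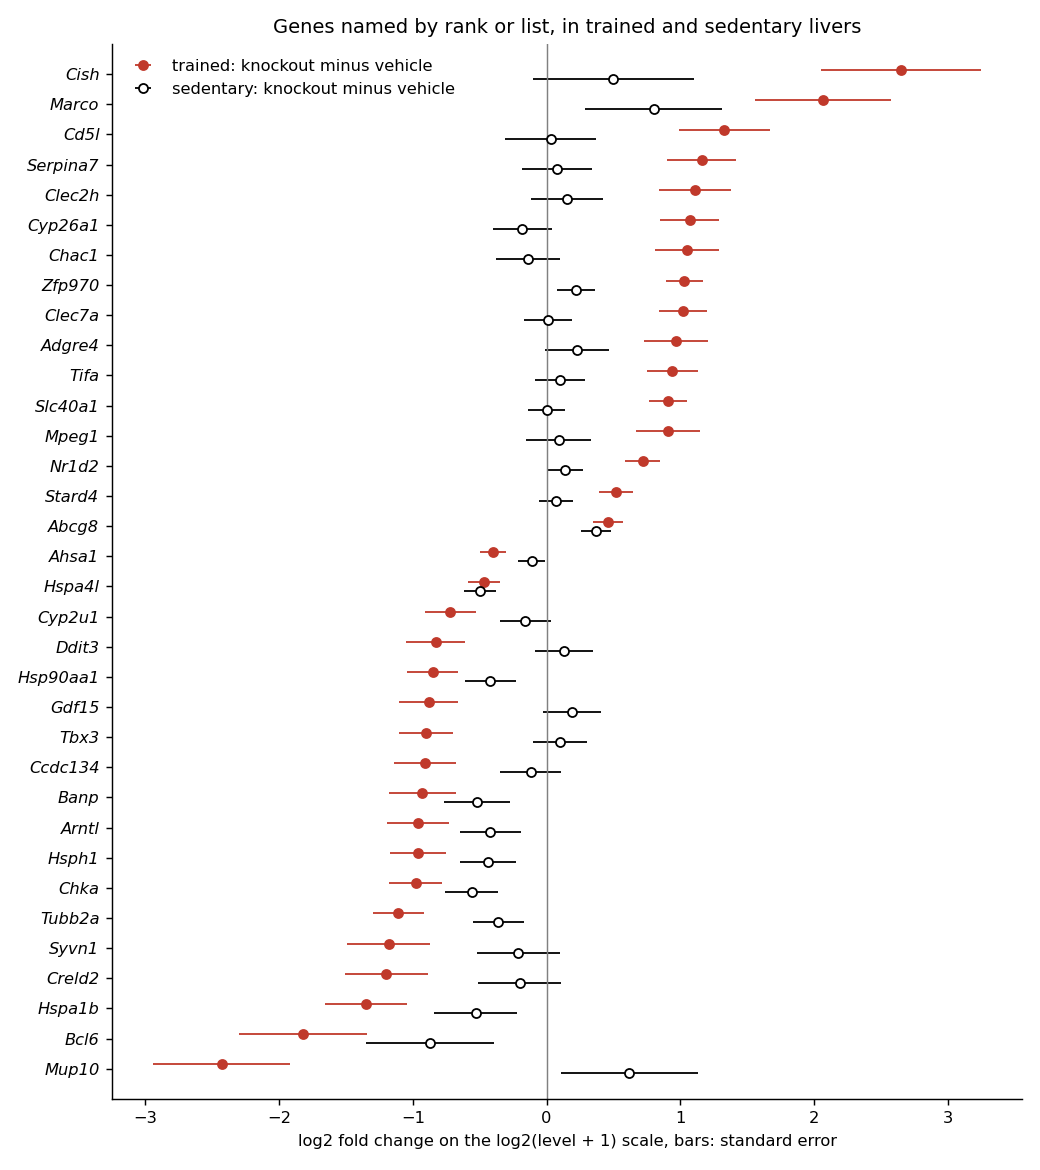
Log2 fold change of knockout minus vehicle (horizontal axis, bars are the standard error) of the 34 named genes (rows) in trained livers (red) and sedentary livers (open). In trained livers the values run from 2.65 for Cish to -2.43 for Mup10; in sedentary livers Hspa4l (-0.50) and Abcg8 (0.37) lie nearest to their trained values of -0.47 and 0.46.

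The same lead genes were read in the trained groups of the other tissues, without a test. In inguinal fat Cish averaged 45.3 ± 15 CPM in trained knockout and 8.76 ± 1.87 CPM in trained vehicle mice (SD, n = 3 each), and the groups were apart. In heart it averaged 108 ± 11 CPM in knockout and 95.9 ± 13.9 CPM in vehicle mice (n = 5 each), and in lung 52.0 ± 3.74 CPM in knockout and 50.3 ± 6.6 CPM in vehicle mice (n = 3 each), and both overlapped. Fat Slc40a1 ran the other way from liver, at 23.7 ± 14.2 CPM in knockout and 57.5 ± 1.81 CPM in vehicle mice. Fat Hsph1 averaged 25 ± 4.26 CPM in knockout and 36 ± 3.48 CPM in vehicle mice, also apart. Of 14 genes read in 3 tissues, these 3 in fat were the ones whose groups did not overlap. The share of all genes in these tissues whose groups were apart was not counted. Groups of 3 libraries fall apart by chance more often than groups of 5, so these readings do not show a difference. Arntl overlapped in each: it averaged 0.896 ± 0.202 CPM in knockout and 0.647 ± 0.39 CPM in vehicle hearts, 2.56 ± 0.625 CPM in knockout and 3.21 ± 0.0644 CPM in vehicle lungs, and 2.17 ± 0.351 CPM in knockout and 2.47 ± 0.629 CPM in vehicle fat.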

How the data were processed

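Per the labels, total RNA (Trizol, then an RNeasy kit) was made into Illumina libraries. In the submitters' processing notes stand Partek, STAR 2.7.8a and 2 builds, GRCm39 and mm10, with no roles given. The deposited liver and heart values are a scaled signal, estimated reads divided by 1 factor per library, although the labels call them CPM. The deposited lung and fat values are expected counts per transcript. Here rows were summed per gene symbol (20894 in liver, with rows that name no gene left out, at most 0.00873% of a library), and liver values were divided by 1 factor, 16.1371, to bring the mean library to the CPM scale. Other tissues are shown as CPM without a test.

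Genes averaging at least 1 were tested with limma 3.58.1 (trend, pseudocount 1, 1 mean per group over 20 livers) in R 4.3.3, and p-values were adjusted by Benjamini-Hochberg over all genes. edgeR 4.0.16 was run on estimated reads, recovered from the step between low values in each library; 81.0 to 83.7 percent of values between 0.05 and 100 were whole within 0.02 reads. Depth covers counting error only. Named genes are Arntl, the 12 highest and 12 lowest fold changes among called genes at 2 CPM or more, and up to 6 called members per list, without predicted genes and pseudogenes. All members of the chaperone, growth hormone, macrophage, integrated stress response and clock lists could be named; uncalled genes of other lists were named after their values were seen. The comparison, the 23 gene lists and 12 marker lists were chosen with earlier results of these data known. Replicate numbers did not pair the samples.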

Additional observations from a re-analysis of the deposited data

Results flagged for a closer look

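Some libraries lay far from the other 4 of their group, by Dixon's criterion with a critical value of 0.71; of 92 groups of 5 examined 10 did so, and chance gives about 1 in 20. Trained knockout replicate 2 had skeletal muscle markers at a sum of 191 CPM. The other trained knockout livers had 0.323 to 5.97 CPM and the trained vehicle livers 0.144 to 1.42 CPM. Slc40a1, the ferroportin gene, had its highest trained knockout liver at 208 CPM and its highest trained vehicle liver at 106 CPM, and the groups stayed apart. The highest trained knockout liver was 22.1 CPM for the Hsp110 gene Hspa4l and 114 CPM for the sterol exporter gene Abcg8. The highest trained vehicle liver was 6.0 CPM for the scavenger receptor gene Marco, 23.5 CPM for Zfp970, 11.7 CPM for Ccdc134 and 2.93 CPM for the summed neutrophil markers. The lowest trained vehicle liver for the summed adipocyte markers was 12.3 CPM.

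The knockout effect differed between trained and sedentary livers for the ribosomal pseudogene Rps2-ps8, by 1.43 on the log2 scale in limma's test of the difference (adjusted p = 0.0491). Its 5 trained knockout livers lay above the trained vehicle livers, and the sedentary values overlapped. The call was lost with edgeR, TMM factors or the GC adjustment.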

How the results depend on the processing

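The 337 genes called between trained knockout and trained vehicle livers became 20 with no filter on low genes, 508 with those 2 groups alone and 1009 at an adjusted p under 0.1. They were 147 without trained knockout libraries 2 and 5, 7 without trained vehicle library 1 and sedentary knockout library 4, 0 without trained vehicle libraries 3 and 4, and 79 with GC content adjusted, 4 alternatives chosen after seeing the data. Leaving out 1 library at a time gave 4 to 595. In sedentary livers the 0 calls became 1 with those 2 groups alone, and were 0 to 0 with 1 library left out. The difference between trained and sedentary effects went from 1 call to 0 with no filter, a mean of at least 5, TMM factors, the replicate block, edgeR, the GC adjustment, and without trained knockout libraries 2 and 5 or trained vehicle libraries 3 and 4; leaving out 1 library gave 0 to 8. The cause was not tested. With the replicate block 270 genes were called between the trained groups. Deviations of same-numbered trained libraries correlated at -0.195, -0.35, -0.0708, 0.218 and -0.0265, and 1 of 5 correlated best with its own number. No named gene changed sign, but list medians near 0 did, among them these. Without trained vehicle libraries 3 and 4 the glucocorticoid list stood at -0.19 (0.14 as reported), apoptosis at -0.08 (0.08), the clock at -0.04 (0.05) and proliferation at -0.04 (0.05). With the GC adjustment drug metabolism stood at -0.14 (0.02). Of the 34 named genes, 33 stayed called with edgeR, 34 with TMM factors, 16 with the GC adjustment, 2 without trained vehicle library 3, 3 without trained knockout library 1, 4 without trained vehicle library 4 and 0 without trained vehicle libraries 3 and 4. At 12.4 M to 20.7 M reads, genes near 1 CPM rest on few reads.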
